A study of Schizosaccharomyces pombe with 22 samples.

Results

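The introns described here are annotated introns of the fission yeast Schizosaccharomyces pombe that have a middling length but no lariat read in the study's list of annotated introns. They were chosen by a listed length of at least 52 and below 202 bases and an empty lariat 5' splice site. The rule was met by 484 of 4701 annotated introns, in 444 of the 2356 genes with a listed intron. The same length window held 2765 introns, so 17.5% of it (95% Wilson interval 16.1% to 19%) had no read, and the other 2281 introns are called read introns below. Over annotated introns of all lengths, 1889 (40.2%) had no read. The absence of reads is what chose the introns and is not a result.

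Lariats were sequenced from total RNA of the dbr1 deletion (strain delta dbr 972h-) grown in rich media, under heat shock or into diauxic shift, with 4 libraries per condition: 2 replicates, each as a long and a short gel fraction. Growth was at 30 °C except in heat shock. The deposited lists give 1 value per condition, so no value has a replicate error, and intervals on shares cover the number of introns counted only. RNA-seq junction counts of polyadenylated RNA are used for a few introns, from the upf1 deletion of strain ED668 and from ED668 itself (2 libraries each), and from the dbr1 deletion and wild type 972h- (1 library per strain and condition).

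Splicing cuts an intron at its 5' end and joins that end to an adenosine near the other end, the branch point, which leaves a loop with a tail called a lariat. The enzyme Dbr1 opens the loop so that the intron can be degraded, and cells without it keep their lariats. A read that crosses the join names both the 5' splice site and the branch point. Fission yeast genes often have several short introns, whose 5' sites mostly read GTANG and whose branch points mostly lie in a CTNAN sequence, N being any base.

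The full list held 17799 branches with 3790260 reads, of which 1421159 came from cells in rich media, 483233 from heat-shocked cells and 1466779 from diauxic shift. For 80 branches the deposited total lay above the sum of its condition columns, by 419089 reads in all. The annotated introns took 3446224 reads. At 0 reads an intron may still have had up to 3 reads by counting error. Read introns of the window had a median of 119 reads (quartiles 13 and 758), and 133 of them had a single read. Of the 484 introns without reads, 464 were placed on the ASM294v3 reference annotation, 452 by intron number and length and 12 by length alone. The listed length is 1 base above the reference length. As a check of the placing, the lariat 5' site was the first reference base in 2773 of 2775 placed read introns of any length.

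The label did not hold for 9 of the 464 placed introns. For these the full list gave branches that began at the intron's own 5' site and ended inside it, with 8341 reads in all. The intron of gna1, which encodes a glucosamine-phosphate N-acetyltransferase, had 1160 rich-media reads, 984 heat-shock reads and 5868 diauxic-shift reads. Of its 8012 reads (exact 95% Poisson interval 7838 to 8189), 7985 ended at base 94, which lies 7 bases before the intron's end. That branch was in none of the study's class lists. Intron 3 of vrp1, the actin-binding verprolin, had 123 rich-media reads, 24 heat-shock reads and 38 diauxic-shift reads, at 1 branch point. Intron 2 of apn1, an AP endonuclease of DNA repair, had 96, 2 and 7 reads in the same order. The other 6 introns were in brf1 (13 reads), wtf24 (10 reads), SPBC18H10.09 (9 reads), wtf22 (4 reads), prl57 (2 reads) and der1 (1 read). The wtf genes are a repeated family, and how reads with several matches were treated was not given in the sources used here. Whether the reads of wtf22 and wtf24, here and at their junctions below, came from other copies was not tested. By raw count diauxic shift was highest in gna1, and rich media was highest in vrp1 and apn1, without replicates to set an error. These counts are not scaled for depth. The lariat libraries had 36349337 reads aligned in introns for rich media, but 6813040 for heat shock and 8542033 for diauxic shift. Whether the order of the conditions holds after scaling was not tested.

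The sequences below are those of 4 coding introns among these 9, read 5' to 3' from RefSeq's ASM294v3. Capitals mark the first 6 bases and the bases around the branch point with the most reads, whose adenosine is the fourth capital of the second block. The first is at I:3505210-3505310 (plus strand), the second at III:1435851-1435922 (plus strand), the third at II:1786415-1786477 (plus strand) and the fourth at II:2510146-2510196 (minus strand).
gna1 intron 1: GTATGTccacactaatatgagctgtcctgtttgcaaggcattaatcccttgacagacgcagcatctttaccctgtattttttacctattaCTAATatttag
apn1 intron 2: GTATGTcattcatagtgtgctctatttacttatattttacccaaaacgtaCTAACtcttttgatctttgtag
SPBC18H10.09 intron 1: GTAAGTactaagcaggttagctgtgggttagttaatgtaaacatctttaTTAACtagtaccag
der1 intron 1: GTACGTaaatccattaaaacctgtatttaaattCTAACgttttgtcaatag
All 4 began with GTANG and ended with AG, and their branch points lay 7 to 18 bases before the end. In read introns of the window the most read branch point lay in CTAAC in 49.6%, CTAAT in 20.7% and TTAAC in 13.7% of 2246 introns, with a median of 12 bases after it.

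**Figure D1:**
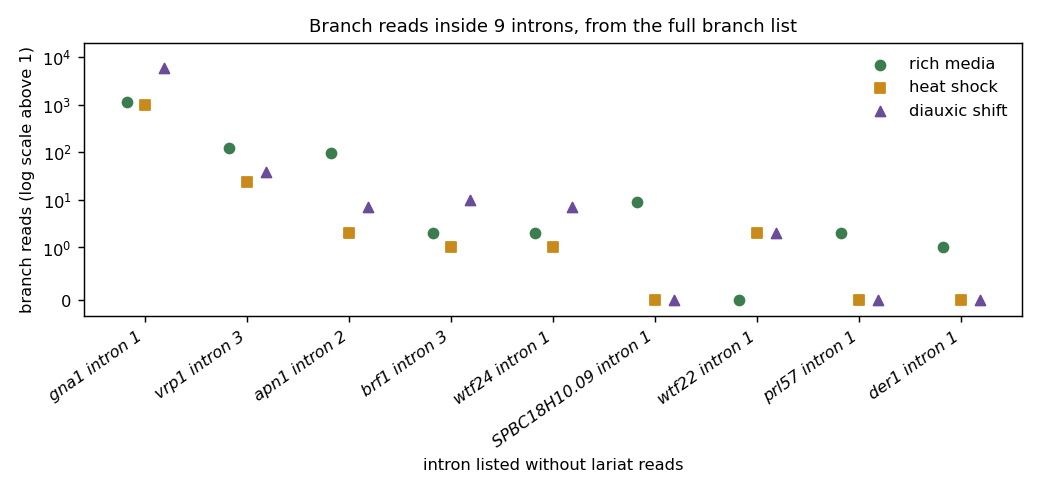
Branch reads inside the 9 introns that the annotated list gives as without lariat reads, from the full branch list. The vertical axis gives reads on a log scale above 1, the horizontal axis names the introns, and each point is the deposited count of 1 condition. The intron of gna1 reaches 5868 reads in diauxic shift, while 6 of the 9 introns have 13 reads or fewer in all.

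The study lists the branch of apn1 among unannotated introns, as antisense to a transcript, and str2, a siderophore transporter gene, lies on the other strand there. Its junction was read in every RNA-seq library used, of which the 6 of the dbr1 deletion and wild type had between 12330328 and 18855775 aligned reads. It had 189 and 116 reads in the upf1 deletion, against 63 and 61 reads in ED668. In rich media it had 36 reads in the dbr1 deletion and 22 reads in wild type, in heat shock 32 reads and 29 reads, and in diauxic shift 35 reads and 59 reads. The raw counts of the upf1 deletion libraries did not overlap those of ED668, with 2 libraries each. Aligned read totals could not be matched to these libraries, so these counts and those of wtf22 and wtf24 below are not scaled. A difference in depth therefore cannot be told apart from a change in the junction, and no test was made. The branches of wtf22 and wtf24 were also listed as unannotated, and the junction of wtf22 had 22 and 20 reads in the upf1 deletion, against 5 and 9 reads in ED668. The junction of wtf24 had 5 and 0 reads in the upf1 deletion, against 2 and 2 reads in ED668, so that its groups overlap. Of the 9 introns, 5 lay opposite a protein-coding gene: vrp1 and brf1 opposite each other, SPBC18H10.09 opposite ubp4, der1 opposite pmt3 and apn1 opposite str2. Over all placed introns this was so for 62 of 464 introns without reads (13.4%) and 250 of 2248 read introns (11.1%), a difference of 2.24 percentage points (95% Newcombe interval -0.87 to 5.86). This property was looked at after the 9 introns were seen.

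Most introns without reads sat at the short end of the window. Their median listed length was 56 bases (quartiles 54 and 61, lowest 52, highest 193), against 78 bases in read introns (quartiles 62 and 109). Introns of at most 60 bases made up 355 of the 484 introns without reads (73.3%), and 22.2% of read introns. The share without reads was 41.2% at 52 to 60 bases (95% Wilson interval 38.0% to 44.6%), 13.3% at 61 to 75 bases (11% to 16.1%) and 2.04% at 76 to 100 bases (1.11% to 3.72%). It was 2.52% from there to 150 bases (1.44% to 4.35%) and 6.32% above 150 bases (3.93% to 10.02%). Length and the absence of reads both chose the introns, so these shares are a description. Of the 16 introns without reads above 150 bases, 6 lay in wtf genes, a repeated family described below. There was no step at the lower limit of the window: 64 of 120 introns of 52 bases (53.3%) had no read, against 73 of 139 introns of 51 bases (52.5%) just outside. Further from the limit the share was 64.3% at 49 bases and 37.1% at 60 bases. At the upper limit all 4 introns of the last length inside the window and both introns of 202 bases had reads.

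**Figure D2:**
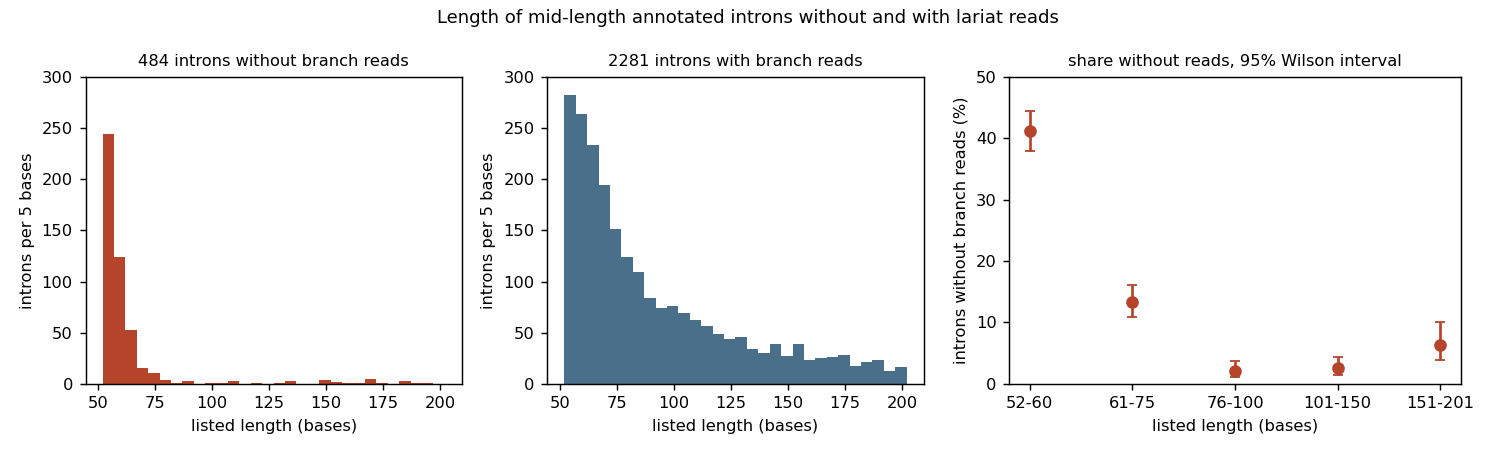
Listed length in bases of the 484 introns without branch reads (left) and the 2281 read introns (middle), as introns per 5 bases, and the percentage of introns without reads per length class with its 95% Wilson interval (right). The share is highest, 41.2%, at 52 to 60 bases and lowest, 2.04%, at 76 to 100 bases.

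The genes of these introns were in many cases spliced with lariats at other introns. Of the 444 genes, 127 had a single listed intron and 317 had several. Of the 317, 234 had a lariat read at another annotated intron, 186 had at least 10 and 58 at least 1000, while 83 had none in the annotated list, 6 of which had a branch inside one of the 9 introns above. Counted per intron, 253 of 357 introns without reads (70.9%) and 1366 of 1655 read introns (82.5%) had a read at another intron of the gene, a difference of -11.7 points (95% Newcombe interval -16.9 to -6.81). With 1 intron per gene the difference was 4.08 points (-1.76 to 9.51), so its direction depends on the counting. Above 75 bases it was -52.9 points (-67.4 to -32.7), in a class of 38 introns without reads that includes introns of the repeated wtf genes. Among 200 introns without reads whose gene had at least 10 reads elsewhere, the most read intron of the gene was longer in 180 (90%). Its median length was 91 bases, against 56 bases for the intron without reads. The introns without reads are mostly short, and the other intron was picked by its reads. Read introns had a median of 8 reads at 52 to 60 bases and 720 reads at 76 to 100 bases. This choice by itself favours a longer other intron, and no matching share was counted for read introns. The reads at other introns come from the libraries that chose the introns, so these values are a description.

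The gene pdc2, a factor of mRNA decapping, had 33092 reads at its intron 2 of 108 bases, while introns 1 and 4, of 56 bases each, and intron 3, of 39 bases, had none. In amk2, a regulatory subunit of the AMP-activated kinase, intron 3 of 97 bases had 17093 reads and intron 1 of 54 bases had none. In both genes the longer introns were read and the shorter ones were not. The gene mug161, a splicing factor of the CwfJ family, had 5349, 8667 and 1119 reads at introns 1, 2 and 4 and none at intron 3 of 58 bases. In pam17, a mitochondrial import motor subunit, intron 1 had 13411 reads, intron 2 of 48 bases had 2 reads, and intron 3 of 63 bases had none. This is a case where a shorter intron was read and a longer one was not. The histone deacetylase gene clr6 had 9419 reads at intron 6 of 91 bases and none at introns 7 and 13, of 56 and 52 bases. It also had 288 reads at intron 8 of 47 bases. The arginine methyltransferase gene rmt1 had 7297 reads at other introns and none at intron 6 of 53 bases, and SPCC1827.05c, an RNA-binding protein of the NIFK kind, had 6611 reads at intron 2 and none at intron 1 of 56 bases.

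**Figure D3:**
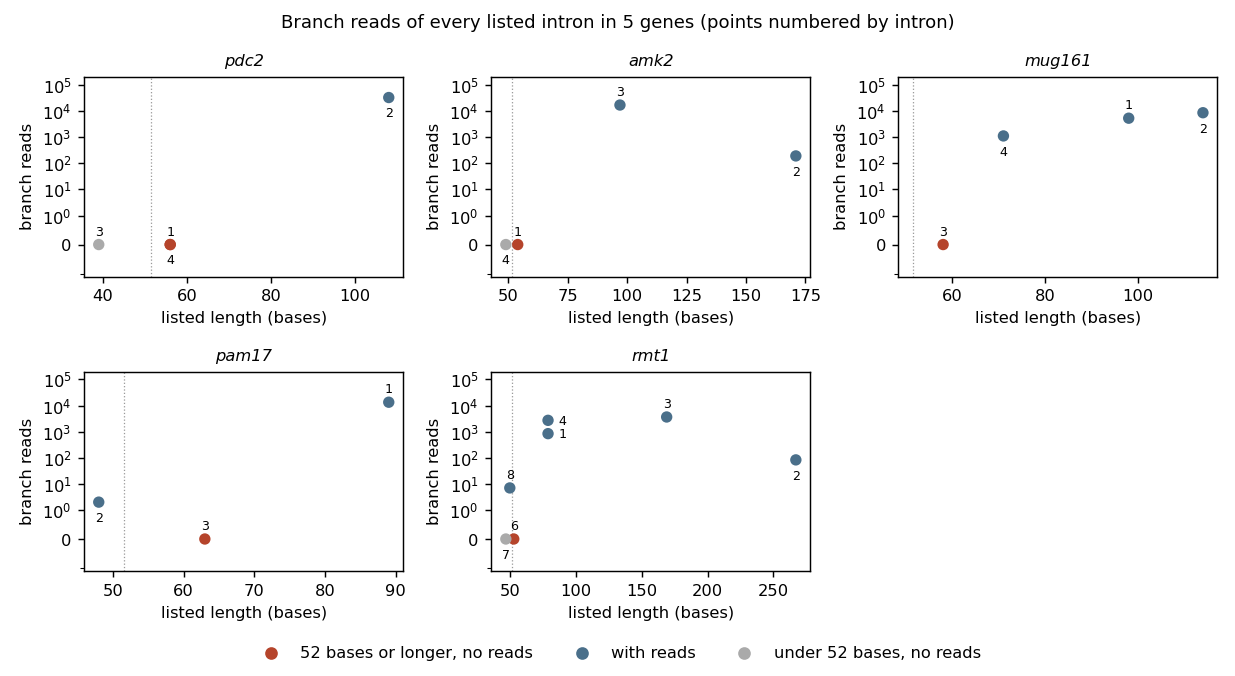
Branch reads (log scale above 1) against listed length in bases for every listed intron of 5 genes, numbered along the gene. Red points are introns of 52 bases or more without reads, blue points have reads, grey points are shorter introns without reads, and the dotted line is the lower limit of the window. In pdc2 the intron of 108 bases has 33092 reads and the introns of 56 bases have none.

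The introns without reads of pdc2 and amk2 are shown beside the most read intron of the same gene, to set their splice sites side by side. Capitals mark the first 6 bases and, in the read introns, the bases around the most read branch point. They lie on the minus strand, at II:2371452-2371506, II:2369191-2369245 and II:2371244-2371350 for pdc2, and at III:2208922-2208974 and III:2208292-2208387 for amk2.
pdc2 intron 1, no reads: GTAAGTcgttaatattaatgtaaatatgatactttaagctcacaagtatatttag
pdc2 intron 4, no reads: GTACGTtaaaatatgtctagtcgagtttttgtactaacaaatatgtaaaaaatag
pdc2 intron 2, read: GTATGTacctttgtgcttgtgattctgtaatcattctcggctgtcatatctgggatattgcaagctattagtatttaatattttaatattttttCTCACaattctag
amk2 intron 1, no reads: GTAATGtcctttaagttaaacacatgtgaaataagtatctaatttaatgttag
amk2 intron 3, read: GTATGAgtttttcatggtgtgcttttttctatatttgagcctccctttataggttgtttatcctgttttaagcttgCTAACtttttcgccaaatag
Both pdc2 introns without reads began with GTANG, as the read one did. The amk2 intron without reads began with GTAATG and so lacked the G at base 5 that the read one had.

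Several genes held more than 1 such intron: 38 genes had 2 and cdc24, a DNA replication gene, had 3. In cdc24 introns 2, 3 and 4, of 55, 65 and 59 bases, had no read, and intron 1 of 56 bases had 6 reads. In klf1, a zinc finger transcription factor gene, introns 4 and 5 had none, while intron 1 of 102 bases had 2687 reads. In gms2, a UDP-galactose transporter, fal1, an RNA helicase, and vam6, a guanyl-nucleotide exchange factor, no listed intron had a read. The shortest, of 52 bases, include intron 5 of klf1, intron 1 of nht1, an Ino80 complex subunit, intron 2 of SPAC11D3.03c, intron 1 of pub1, a ubiquitin ligase, and intron 1 of nce101. The 5 longest introns without reads were intron 1 of dcd1 (193 bases), a deoxycytidylate deaminase, of SPCC24B10.03 (188 bases), of wtf17 (186 bases), of SPCC13B11.03c (185 bases) and of SPCC1884.01 (184 bases). Above 150 bases 1 of 12 introns without reads in genes with several introns had a read elsewhere in the gene, against 134 of 158 read introns. Of the 12, 6 lay in the repeated wtf genes, among them the 1 with a read elsewhere, in wtf17. At 52 to 60 bases the counts were 195 of 263 introns without reads and 310 of 380 read introns.

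Over the whole window the shares of first and last introns lay close together in both kinds. Intron 1 made up 246 of 484 introns without reads (50.8%) and 48.1% of read introns, a difference of 2.69 percentage points (95% Newcombe interval -2.20 to 7.57). Within length classes, weighted by the introns without reads, the difference was 5.84 points (95% Wald interval 0.34 to 11.3). Above 150 bases first introns made up 13 of 16 introns without reads and 54.4% of read introns, a difference of 26.8 points (1.78 to 40.5). Of these 16 introns, 6 were first introns of the repeated wtf genes and are not independent, which the interval leaves out. Introns between the first and the last made up 20.5% of introns without reads and 23.2% of read introns, a difference of -2.74 points (-6.53 to 1.44), and of -5.67 points within length classes (-10.3 to -1.06). Last introns made up 53.7% of introns without reads and 54.4% of read introns, and genes whose highest intron number is 1 held 25% and 25.7%. This count leaves out genes with a single listed intron of a higher number. By intron number the share without reads was 18.3% at intron 1, 16.1% at intron 2, 16.4% at intron 3, 15.4% at intron 4, 21.2% of 66 at intron 5 and 30.8% of 26 at intron 6. By chromosome it was 16.1% on I, 19.1% on II and 17.8% on III. Inside coding sequence lay 448 of 464 placed introns without reads (96.6%) and 97.4% of read introns. Introns of the 3' trailer made up 11 introns without reads (2.37%) and 0.845% of read introns, a difference of 1.53 points (0.38 to 3.37).

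Fewer introns without reads were found again in the reference annotation. It held 464 of 484 of them (95.9%) and 98.6% of read introns, a difference of -2.69 points (95% Newcombe interval -4.89 to -1.13). By length, 6 of 10 introns without reads of 76 to 100 bases were found, against 98.3% of read introns, and 9 of 12 at the next lengths up to 150 bases, against 98.9%. At 52 to 60 bases it was 98% of introns without reads and 98.4% of read introns. Of the 20 that were not found, 6 were in genes without an intron in the reference and 10 had a peak count of 0 (the authors' second count per intron, described below). They include introns of nup189, a nucleoporin, med13, a Mediator subunit, cnx1, calnexin, and brc1, a DNA repair protein whose other intron had 6260 reads.

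The 5' splice sites of introns without reads followed GTANG less often. It was present in 347 of 464 introns without reads (74.8%) and 1973 of 2248 read introns (87.8%), a difference of -13 points (95% Newcombe interval -17.3 to -8.99). Within length classes the difference was -8.45 points (-13.2 to -3.73). Among bases 3, 5 and 6 the difference was largest at base 5, which pairs with U1 and later U6 RNA in splicing. It was G in 82.1% of introns without reads and 93% of read introns, a difference of -10.9 points (-14.7 to -7.45), and -8.67 points within length classes (-12.7 to -4.65). The A at base 3 was present in 92% of introns without reads and 94.8% of read introns, a difference of -2.77 points (-5.72 to -0.41), but of -0.43 points within length classes (-3.52 to 2.67), and the T at base 6 in 64.9% and 69.6%. The first 6 bases were GTAAGT in 25.9% of introns without reads and 30.9% of read introns, and GTATGT in 18.8% and 22.4%. For the narrower motif GTATG the difference was -3.59 points, with an interval that spans 0 (-7.99 to 1.09).

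A branch motif was present in most introns of both kinds. CTNAN lay in the last 60 bases of 405 of 464 introns without reads (87.3%) and 91.5% of read introns, a difference of -4.17 points (95% Newcombe interval -7.69 to -1.18). Within length classes it was -2.30 points (-5.98 to 1.37), which spans 0. The stricter CTAAC or CTAAT in the last 40 bases was present in 66.4% of introns without reads and 72.5% of read introns, a difference of -6.13 points (-10.9 to -1.57), but of -3.36 points within length classes, where the interval spans 0 (-8.62 to 1.90). Where CTNAN was present, its adenosine had a median of 12 bases after it in introns without reads and 11 in read introns. At the intron's end TAG was present in 66.6% of introns without reads and 71.2% of read introns, and AAG in 14.4% and 10.3%, a difference of 4.12 points (0.92 to 7.81), but of 3.20 points within length classes, where the interval spans 0 (-0.66 to 7.06). The median GC content was 26.4% in introns without reads and 29.7% in read introns, and at 52 to 60 bases 25.9% and 30.2%. All placed introns without reads but 2 had GT and AG at their ends. Intron 5 of mis18, a kinetochore gene, begins with GC, and the intron of SPBC3D6.16 does not end in AG. They are shown for these ends, the first 6 bases in capitals, from III:514093-514166 (minus strand) and II:1296964-1297021 (plus strand).
mis18 intron 5: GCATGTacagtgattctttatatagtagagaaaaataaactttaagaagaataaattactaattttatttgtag
SPBC3D6.16 intron 1: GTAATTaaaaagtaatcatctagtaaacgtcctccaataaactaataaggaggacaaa

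**Figure D4:**
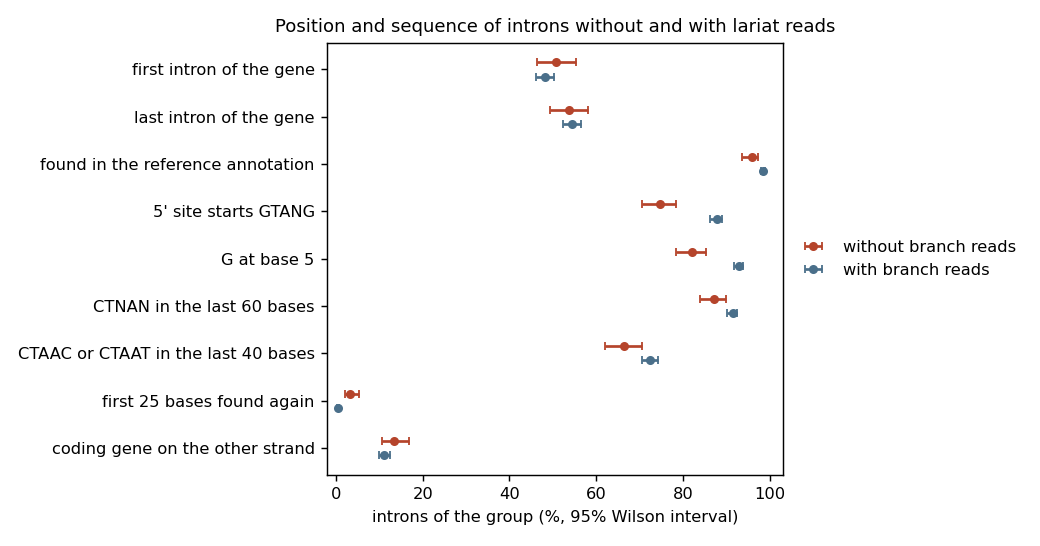
Percentage of introns with each feature of position or sequence, for introns without branch reads (red, upper of each pair) and read introns (blue, lower), with 95% Wilson intervals. GTANG is present in 74.8% of introns without reads and 87.8% of read introns, while the shares of first and last introns lie within a few points.

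Other lariats of the same genes were common. Alternate introns, exon skips or unannotated introns with lariat reads were listed in the genes of 319 of 484 introns without reads (65.9%) and of 81.4% of read introns. Alternate introns were listed in the genes of 188 introns without reads (38.8%) and of 69.4% of read introns. Both this count and that over all lists include alternates at the intron's own 5' or 3' site. Such alternates were at the 5' site of 31.5% and the 3' site of 22.1% of placed read introns, and at neither for introns without reads. Their part in the gap was not tested. Exon skips were listed for 62 introns without reads (12.8%) and for 13% of read introns, and unannotated introns for 178 (36.8%) and 34.6%. In these genes the alternate introns held 15572 reads, the unannotated introns 8579 and the exon skips 365. Genes with several introns share these lariats among their introns, so the introns are not independent.

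At the 5' site itself, 23 of 464 introns without reads (4.96%) had another lariat, against 767 of 2248 read introns (34.1%). The difference was -29.2 points over the window and -17.0 points within length classes (-20.3 to -13.7), with alternate introns counted. Branches at the 5' site outside the alternate and unannotated lists were found for 20 introns without reads (4.31%) and 86 read introns (3.83%). That difference was 0.48 points (-1.25 to 2.85), and 0.02 points within length classes (-2.26 to 2.30). No listed alternate intron used the 5' site or the 3' site of an intron without reads, while 709 read introns had an alternate at their 5' site and 497 at their 3' site. The alternates are named by the site they share with an annotated intron, and how a partner without reads was treated was not given in the sources used here. Whether this treatment leaves such introns without listed alternates was not tested, so the differences of -29.2 and -17.0 points are a description. Of the 23, 9 are the introns with branches inside described above, and 15, wtf24 among them, had a branch beyond the intron's end, with 42 reads. In 13 of the 15 the 5' site was also that of a listed exon skip. In all, 13 introns without reads gave the 5' site of a listed skip (31 reads) and 22 gave its branch point, 34 introns in either role. Introns 2 and 3 of cdc24 made up the 2 ends of a skip with 8 reads. Intron 4 of csn3, a COP9 signalosome subunit, gave the 5' site of a skip with 8 reads. Branches beyond the end had 7 reads at intron 1 of hul5, a ubiquitin ligase, where the listed skip had 2 reads. At intron 1 of trm5, a tRNA methyltransferase, they had 5 reads and no skip was listed. Intron 3 of ubp9, a ubiquitin hydrolase, gave the branch point of skips with 28 reads, and intron 2 of pre3, a proteasome subunit, of skips with 15 reads. Introns 1 and 3 of SPBC16E9.15 gave 1 read and 9 reads in the 2 roles. The 34 introns in either role thus had lariat reads of a skipped exon but none of their own in the annotated list.

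The annotated list also gives a peak count per intron, for which the sources used here hold no definition. It comes from the same experiment as the reads that chose the introns and is given as a description. It was 4 at the median of introns without reads (quartiles 1 and 15.3, range 0 to 48414) and 1365 at the median of read introns (quartiles 84 and 16166). It was 0 in 94 introns without reads, 1 to 9 in 234, 10 to 99 in 117 and at least 100 in 39. In read introns it was 0 in 28. At 52 to 60 bases the medians were 3 in introns without reads and 34 in read introns, and over 100 and up to 150 bases 1.5 in introns without reads and 20601 in read introns.

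The 11 introns without reads with a peak count of at least 1000 include gna1 with 48414 and intron 3 of vrp1 with 16997, both among the 9 with branches inside. The next was por1, the voltage-dependent anion channel of the outer mitochondrial membrane, with 10097 at an intron of 77 bases in its 5' leader, and no branch at its 5' site. Intron 1 of cwf12, a gene for a spliceosome-associated protein, had 1812 at 62 bases and no branch, while its other intron had 6488 reads. SPCC24B10.03 had 1205. The other 6 are first introns of wtf genes: wtf24 with 7612, wtf22 with 6606, wtf21 with 2553, wtf9 with 2432, wtf2 with 1770 and wtf3 with 1316.

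**Figure D5:**
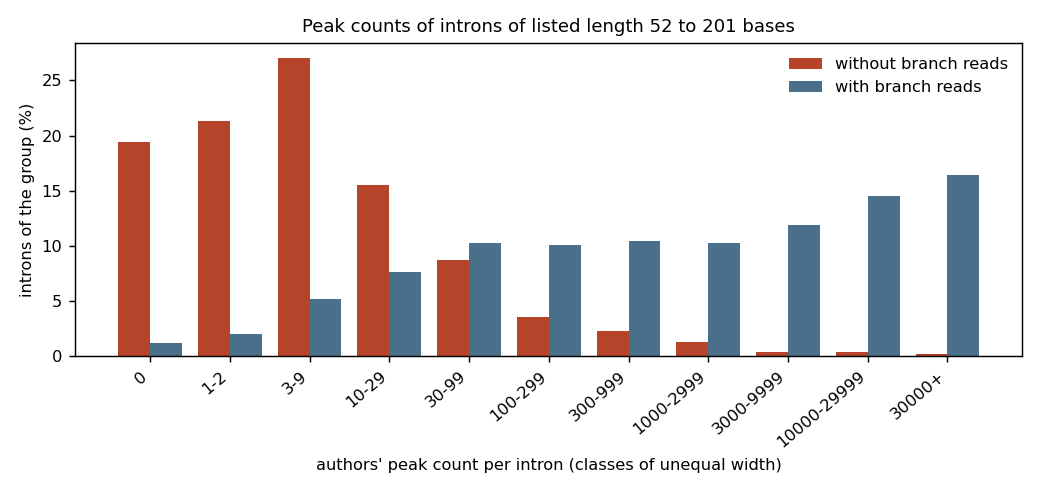
Percentage of introns per class of the authors' peak count, for 484 introns without branch reads (red) and 2281 read introns (blue), classes being of unequal width. Of the introns without reads 94 are at 0 and 39 at 100 or above, against 28 read introns at 0.

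The wtf genes, a repeated family of meiotic drivers that kill spores not inheriting them, held several introns without reads. Of their 24 introns in the window 13 had none in the annotated list (54.2%), and of 14 first introns 7 had none. With the branches inside wtf22 and wtf24 counted, 11 of 24 introns and 5 of 14 first introns had none. They made up 6 of the 16 introns without reads longer than 150 bases, and the 7 read wtf introns of that length had between 1 and 18 reads. Genes that the reference annotates as pseudogenes hosted 7 introns without reads, all of them in wtf genes, and 2 read introns. The first introns of wtf9 and wtf21 differ at 1 of 167 positions, and those of wtf9 and wtf24 at 9. They are shown as near copies, with the first 6 bases and the most read branch point of wtf24 in capitals, from III:487306-487472, III:2064591-2064757 and III:2181343-2181509 (plus strand).
wtf9 intron 1: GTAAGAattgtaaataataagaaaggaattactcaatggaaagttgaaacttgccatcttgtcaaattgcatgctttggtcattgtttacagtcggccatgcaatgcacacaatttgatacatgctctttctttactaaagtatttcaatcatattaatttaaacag
wtf21 intron 1: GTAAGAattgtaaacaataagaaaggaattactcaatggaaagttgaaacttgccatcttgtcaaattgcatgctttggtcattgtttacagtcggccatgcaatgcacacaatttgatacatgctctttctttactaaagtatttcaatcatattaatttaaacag
wtf24 intron 1: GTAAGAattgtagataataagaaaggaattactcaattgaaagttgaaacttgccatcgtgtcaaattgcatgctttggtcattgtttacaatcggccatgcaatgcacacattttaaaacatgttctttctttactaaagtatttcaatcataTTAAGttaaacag

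Sequence repeated in the genome was more frequent among introns without reads. The first 25 bases were found again elsewhere for 15 of 464 introns without reads (3.23%) and 8 of 2248 read introns (0.356%), a difference of 2.88 points (95% Newcombe interval 1.57 to 4.92). Many of these introns are copies of one another and are not independent, which the interval leaves out. The start shared by the introns of wtf3, wtf9 and wtf22 was found at 14 places, and 6 read wtf introns began with it too. The starts of SPAC212.01c, SPAC750.06c, SPBC1348.01, SPBCPT2R1.01c, SPBCPT2R1.04c and SPCC569.03 were found at 5 places each. The pairs yip11 and yip12, mfm1 and mfm3, and plb4 and SPBC1348.10c were found at 2 places each. The genes mfm1 and mfm3 encode precursors of the M-factor mating pheromone, and plb4 encodes a phospholipase. How reads with several matches were treated was not given in the sources used here, and its part in these counts was not tested.

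The share without reads also varied between groups of genes, described here beside 17.5% over the window and beside the share that the list's intron lengths alone would give. Meiosis and sporulation genes had 36 of 116 introns without reads (31.0%, 95% Wilson interval 23.3% to 39.9%), against 18.7% from their lengths. Without the wtf genes it was 23 of 92 (25%, 17.3% to 34.7%), against 19.3%, an interval that holds the value from lengths. They include intron 3 of mug161, intron 2 of wtf7, and introns 1 and 5 of rec11, a meiotic cohesin subunit with 4716 reads at other introns. Ribosomal protein genes had 4 of 57 introns without reads (7.02%, 2.76% to 16.7%), against 15% from lengths: rpl1602, rpl1603, rps001 and rps3001, each in a single intron of 53 to 59 bases. Respiration and mitochondrial translation genes had 6 of 81 (7.41%, 3.44% to 15.2%), against 14.2% from lengths, among them intron 2 of qcr9, a subunit of complex III, intron 3 of coq4, of ubiquinone synthesis, and introns of atp14 and atp17, subunits of the ATP synthase. RNA decay genes had 4 of 43 (9.30%, 3.68% to 21.6%), against 16.7%. These were intron 2 of rrp45, an exosome subunit with 5240 reads at its other introns, intron 3 of mmi1, which binds meiotic transcripts for removal, intron 3 of rmn1, of an exosome adaptor complex, and intron 2 of ste13, an RNA helicase of decapping.

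Of the 10 lists, the interval of the meiosis list with its wtf genes was the only one that did not hold the share from lengths, so the shares of the other 9 could not be told from it at these numbers. Splicing factor genes had 14 of 65 introns without reads (21.5%), against 21.1%, among them cwf12, prp24, cdc5 and lsm8. Cell cycle and replication genes had 20 of 107 (18.7%), against 20.8%, with intron 5 of cdc2, the cyclin-dependent kinase, whose other introns had 4311 reads, and introns of cdc4, cdc5 and rfc3. Secretory pathway genes had 19 of 131 (14.5%), against 19.6%, with intron 3 of arf6, a small GTPase, and introns of vps15, sft2 and yip11. This list takes yip11 by its name, which the reference annotates as an SMN complex subunit. Ubiquitin and proteasome genes had 11 of 91 (12.1%), against 16.2%, with intron 4 of ubp8, of the SAGA complex, whose other introns had 5470 reads, and introns of csn3, pof11 and pub2. Ribosome biogenesis genes had 3 of 16, in nog1, gar1 and spb1. Heat shock and stress genes had 0 of 7, which at this number allows a share of up to 35.4% (95% Wilson interval).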

How the data were processed

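Lariat and RNA-seq libraries were deposited as lists for the whole series. Branch reads and junction reads are whole read counts made by the authors, the lariat counts given as 1 value per condition. The peak counts, listed lengths, positions and classes were assigned by the authors as deposited. For the lariat reads an aligner was not given in the sources used here. Files follow ASM294v2, per the submitters' processing notes.

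The introns and gene lists were chosen with earlier results of these data known. Positions and sequences come from the RefSeq annotation of ASM294v3, by gene, intron number and length, and branches of the full list were matched to the first base of each placed intron. The table of names gave a symbol for 381 of 444 genes. Shares carry 95% Wilson intervals. Differences are introns without reads minus read introns, in percentage points, with 95% Newcombe intervals. Weighted differences within length classes use 5 length classes and have 95% Wald intervals instead. These intervals treat introns as independent. They were tested on simulated data. No p-value was computed, since lariat lists have no replicates. The comparison of lariat conditions by a replicate fit was therefore not made. Named introns are the 10 with most reads at the same 5' site, the 10 with most reads at other introns, the 5 longest and shortest, the 5 genes with most such introns and up to 4 per list, of which 1 is not reported here. Others are named after their values were seen. Promoters, proteins and gene-level RNA-seq are not used here. The scripts ran in Python 3.11.15 with pandas 2.3.3, NumPy 2.4.6, matplotlib 3.10.9 and SciPy 1.17.1.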

Additional observations from a re-analysis of the deposited data

How the results depend on the processing

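Of 84 alternatives to the counts and differences, 62 kept direction and side of 0, or were counts that moved little or shares that stayed inside the main interval. Such shares could still rise, as in ribosome biogenesis genes from 18.75% to 31% when all lengths were counted. Above 75 bases 38 introns remained without reads, 3.11% of the class, and the 5' motif and branch motif differences, -7.55 and -3.23 points, had intervals spanning 0. The share without reads was 21.9% with 1 intron of each kind per gene, where a gene with both kinds counts under both (444 of 1826 genes, 24.3%, held an intron without reads), 21.5% against introns with at least 10 reads, and 41.2%, 13.3%, 2.04%, 2.52% and 6.32% in the 5 length classes from short to long. With 1 intron per gene the first-intron difference turned to -14.0 points, but that setting takes the lowest intron number of each kind and so selects on this property. There the difference in genes with another read intron turned to 4.08 points (interval -1.76 to 9.51), against -11.7 points (-16.9 to -6.81) counted per intron, and the branch motif difference was -3.12 points. The last-intron difference, -0.64 points, turned to 0.16 points without the longest introns of the window, 1.21 points above 75 bases and 1.95 points within length classes, all with intervals spanning 0. Within length classes the first-intron difference was 5.84 and the branch motif difference -2.30 points. There the difference in another lariat at the same 5' site, alternates included, was -17.0 points. The difference in genes with another read intron was -52.9 points above 75 bases. With GTATG in place of GTANG the difference was -3.59 points. For other lariats of the same gene, -15.5 points over all lists, the exon skip list alone gave -0.17 points and the unannotated list alone turned to 2.19 points, both with intervals spanning 0. The alternate list alone, which counts alternates at an intron's own sites, gave -30.6 points. Leaving out the 9 introns with branches inside, an alternative added after the values were seen, changed no direction and no side of 0. No paired analysis was possible because the lariat lists hold 1 value per condition. Gene lists counted over all lengths, or as shares of genes, gave higher shares without reads, up to 58.6% in meiosis genes, except heat shock genes, which stayed at 0.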
